A study of Mus musculus with 40 samples.

Results

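Calcitonin and neuroendocrine cell genes were followed in bulk RNA-seq of the larynx, trachea and esophagus of wild type FVB/N mice. The 9 genes were Calca, Calcb, Insm1, Chga, Chgb, Scg2, Scg5, Resp18 and Grp, of 53647 gene identifiers in the tables, and each was read in all 40 libraries. They were chosen by name, as known genes of airway neuroendocrine cells and thyroid C cells, and selected on 1 measured value, the high level of Calca that an earlier description of these libraries had shown in the P0 larynx, so that Calca at P0 is described here with no test. The question set for them was whether Calca follows thyroglobulin (Tg), the protein from which thyroid follicles make their hormone, or the neuroendocrine genes.

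The mice were untreated. Libraries of the larynx came from embryos at E10.5 and E11.5, then at E13.5 and E15.5 and last at E18.5, from newborns at P0 and from adults of 6 to 8 weeks, and libraries of the trachea and the esophagus from embryos at the same 5 ages. What is called larynx here was titled primitive laryngopharynx at E10.5 and vocal fold in every index library (E15.5, P0 and adult), so the named dissection changes with age and with kind of library. Embryonic tissue was pooled from 10 animals at each age, or from 20 at E15.5, while the sources used here do not say how newborn and adult tissue was pooled. Each group had 2 libraries, and since the samples were pooled dissections the tests measure the spread between such pools.

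Neuroendocrine cells of the airway epithelium lie alone or in small clusters and store peptides and amines in dense core vesicles. C cells of the thyroid arise in the pharyngeal region, enter the thyroid during development and secrete calcitonin. Calca encodes both calcitonin and, by alternative splicing, the neuropeptide calcitonin gene-related peptide, which sensory neurons use, so its reads alone do not name a cell type. The granins and their relatives (Chga, Chgb, Scg2, Scg5) are shared by endocrine cells of many kinds, the parathyroid among them, and by neurons.

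Libraries were of 2 kinds by their names. The index kind (10 libraries, with all P0 and adult larynx and 2 of each organ at E15.5) held 22553149 to 35831491 counts, of which at most 0.196% were mitochondrial ribosomal RNA. The short-code kind (30 libraries, embryonic) held 3286403 to 26378626 counts, with 9.3 to 32.2% mitochondrial ribosomal RNA. In tests between 2 ages, libraries were therefore compared within a kind. The splines over age took both kinds together, with no term for kind. Levels are CPM, counts scaled to a library total of 1000000, and a difference is on the log2 scale from edgeR's quasi-likelihood test over 36495 genes, called at a Benjamini-Hochberg adjusted p under 0.05. In bulk tissue, fewer cells of a type and less RNA per cell cannot be told apart. The 3 counts taken as a limit of detection equal 0.913 CPM in the shallowest library, the first of the E11.5 larynx, and at most 0.258 CPM in every other library. An earlier description had set 4 libraries apart, the second short-code libraries of the E11.5 larynx, E15.5 larynx and E15.5 trachea and the second of the index kind of E15.5 esophagus, and fits were repeated without them.

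The 9 genes did not move as 1 group. Over their 36 pairs, Pearson's r of log2(CPM + 1) across the 40 libraries ran from -0.336 for Calcb with Scg5 to 0.816 for Scg5 with Resp18. Calca, Chga, Chgb, Scg2 and Scg5 exceeded 20 CPM in at least 1 library. Insm1 reached at most 12.2 CPM, Resp18 4.97 CPM, Calcb 4.25 CPM and Grp 2.10 CPM.

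**Figure D1:**
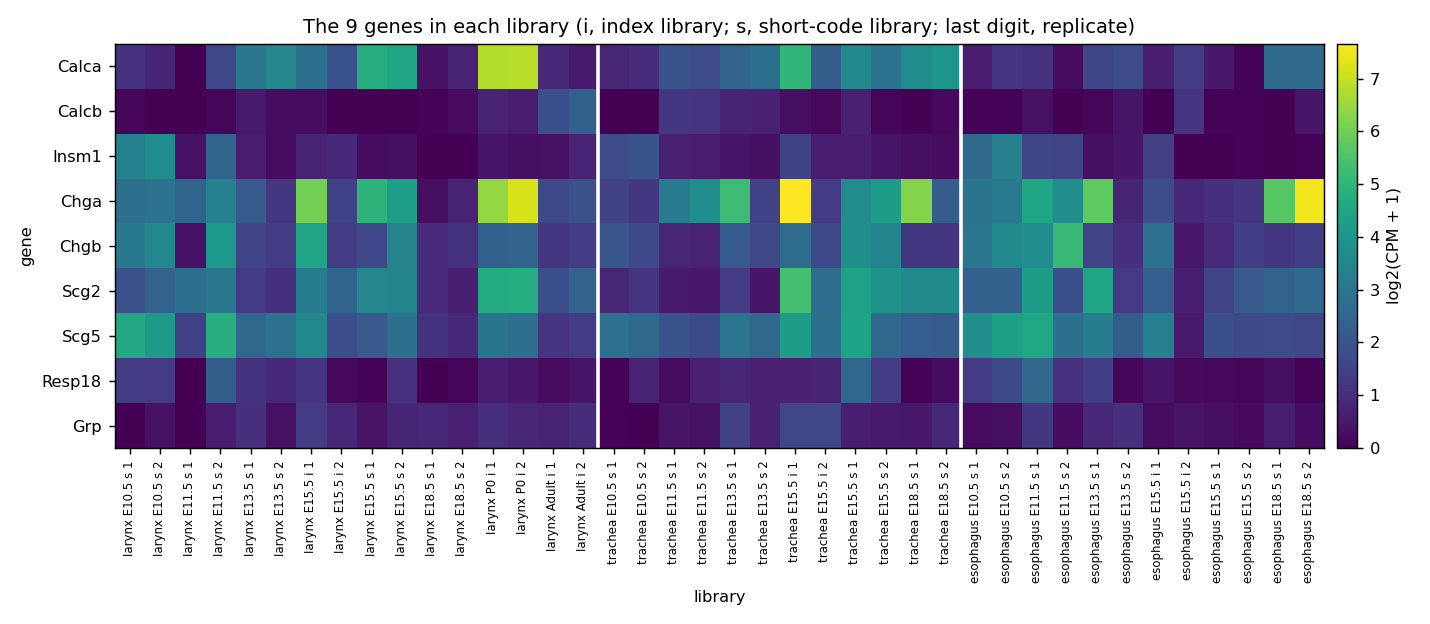
Level of each of the 9 genes (rows) in each of the 40 libraries (columns, by organ, age and kind), as log2(CPM + 1) on a color scale from 0. Calca is brightest in the 2 libraries of the P0 larynx (109 and 113 CPM), Chga in single libraries of several groups up to 200.6 CPM, and Insm1 at E10.5.

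Calca, on chromosome 7 (chr7:114230712-114235592, minus strand, GRCm39), was highest in the P0 larynx at 109 and 113 CPM. In the larynx its short-code libraries read 1.15 and 0.726 CPM at E10.5, 0 and 2.06 CPM at E11.5, 7.41 and 10.6 CPM at E13.5, 26.4 and 22.1 CPM at E15.5, and 0.299 and 0.704 CPM at E18.5. Its index libraries of the larynx read 6.01 and 2.78 CPM at E15.5, 109 and 113 CPM at P0, and 0.843 and 0.456 CPM in adults. Within the short-code libraries of the larynx Calca was thus highest at E15.5 and under 1 CPM at E18.5, and within the index libraries it was highest at P0 and under 1 CPM in adults. With no index library at E18.5, the levels at E18.5 and P0 cannot be set against each other within a kind.

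In the trachea the Calca level was 0.780 and 1.01 CPM at E10.5, 2.96 and 2.43 CPM at E11.5, 4.39 and 5.74 CPM at E13.5, 11.0 and 6.60 CPM at E15.5 and 11.96 and 15.3 CPM at E18.5 in short-code libraries. The 2 index libraries of the E15.5 trachea differed, at 31.7 and 3.76 CPM. In the esophagus Calca stayed low until E18.5. Its short-code libraries read 0.520 and 1.3 CPM at E10.5, 1.15 and 0.205 CPM at E11.5, 2.05 and 2.399 CPM at E13.5, 0.426 and 0.0453 CPM at E15.5 and 5.25 and 5.203 CPM at E18.5, and its index libraries 0.546 and 1.56 CPM at E15.5. With the 20 groups ordered by mean Calca, the libraries of neighbouring groups overlapped in all but 5 of 19 pairs. The gap between the P0 larynx and the next group, the short-code E15.5 larynx, was 1 of these 5.

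Averaged over the 3 organs, 4 of the 9 genes passed the test at E13.5 against E10.5, where 30.2% of all genes passed. Calca, Calcb and Grp were higher, as were 13.6% of all genes, and Insm1 was lower, as were 16.6%. The Calca difference was 2.55 (SE 0.529, edgeR adjusted p = 0.000458), and in every organ both E13.5 libraries lay above both E10.5 libraries. Under 19 alternatives in processing or libraries the adjusted p of Calca ranged from 1.80e-14 to 0.00556. Tg also passed, at 2.33 (SE 0.889, edgeR adjusted p = 0.0468), but still read only 2.10 to 5.94 CPM in the E13.5 libraries.

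From E13.5 to E18.5 Calca passed the test in the larynx and in neither other organ, while the differences between organs did not pass by edgeR. In the larynx it fell by 3.55 (SE 0.943, edgeR adjusted p = 0.0155), a comparison in which 8.55% of all genes passed. With single libraries left out the fall in the larynx measured 3.10 to 4.23. The adjusted p then ran from 0.0310 to 0.178, and the call was kept only without the first E13.5 library. In the trachea the difference was 1.90 (SE 0.833, edgeR adjusted p = 0.170) and in the esophagus 1.96 (SE 0.857, edgeR adjusted p = 0.178), with both E18.5 libraries above both E13.5 libraries in each organ, where 10.8% (trachea) and 10.1% (esophagus) of all genes passed. The difference between larynx and trachea in this step was -5.44 (SE 1.26, edgeR adjusted p = 0.238), and that between larynx and esophagus -5.50 (SE 1.27, edgeR adjusted p = 0.338), neither of which passed, as 0% and 0.00822% of all genes did. Both passed with DESeq2 (adjusted p = 0.00793 and 0.00831) and without the 4 libraries set apart (0.0319 and 0.0196). Averaged over the organs Calca differed by 0.10 and did not pass (edgeR adjusted p = 1). Tg over the same step was higher by 9.62 (SE 1.16, edgeR adjusted p = 3.42e-07), and in the larynx alone by 6.27 (SE 1.75, edgeR adjusted p = 0.0218). Between these 2 ages Calca thus fell in the larynx while Tg rose, with Tg at 16.7 and 550 CPM at E18.5 against 5.05 and 5.94 CPM at E13.5. At E15.5, which the step skips, the short-code larynx averaged 24.3 CPM of Calca. The 13 thyroid follicle genes, Tg among them, there summed to 2294 to 2770 CPM. That sum was 19.8 to 50.2 CPM at E13.5 and 28.0 to 576 CPM at E18.5. Calca and this sum were thus both higher at E15.5 than at either end of the step.

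Calca was the 1 gene of the 9 that differed between organs, a comparison made at like age and kind over 6 groups an organ. The trachea exceeded the esophagus by 2.21 (SE 0.377, edgeR adjusted p = 0.00166), where 1.52% of all genes passed and 0.658% were higher. The call held without each single library, at 1.83 to 2.62, but not with both kinds of library in 1 mean (1.70, adjusted p = 0.252). Tg was likewise higher in the trachea, by 2.97 (SE 0.625, edgeR adjusted p = 0.0104). For larynx against esophagus 0 of the 9 genes passed by edgeR, where 0.222% of all genes did, and 1 by DESeq2, where 499 of 36495 did. Calca there differed by 1.42 (SE 0.387, unadjusted p = 0.00105 in edgeR over all genes, adjusted p = 0.147) and was the only one of the 9 with an unadjusted p under 0.05. It did pass without either index library of the E15.5 esophagus, with an adjusted p of 0.0235 and 0.0268. The difference was 0.11 to 1.82 over the single libraries left out, the lowest without the second E11.5 library of the larynx. For larynx against trachea 0 of the 9 passed by edgeR, where 0.406% of all genes did, or by DESeq2, where 608 of 36495 did. Calca, Chga and Chgb had an unadjusted p under 0.05. The share of all genes under that unadjusted p is not given here for either pair of organs.

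**Figure D2:**
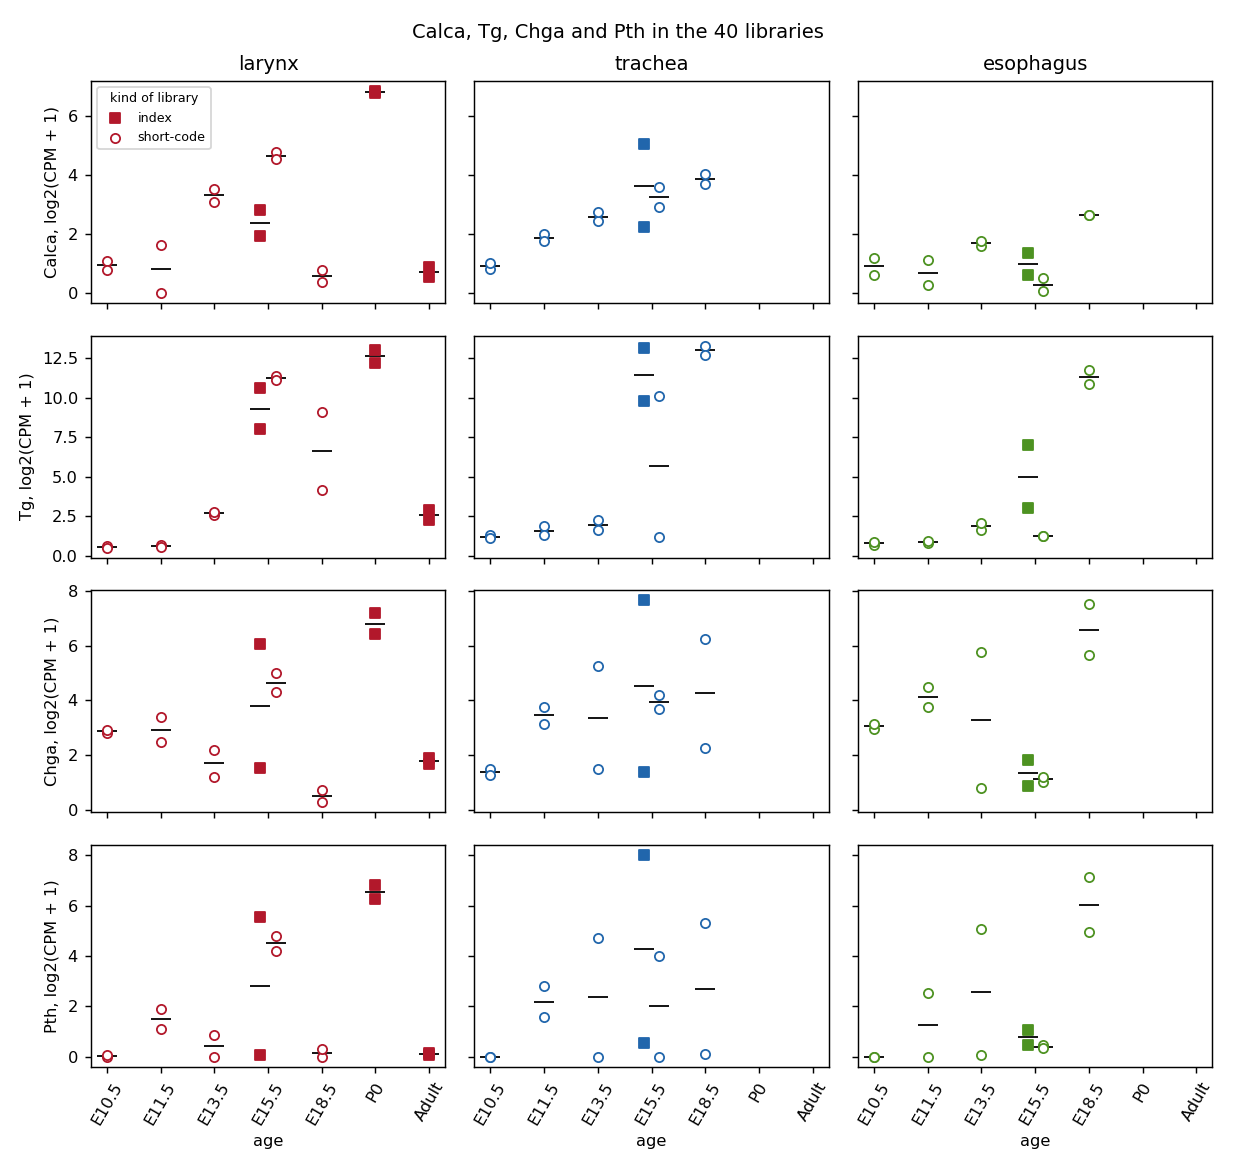
Level of Calca, Tg, Chga and Pth (rows, log2(CPM + 1)) by age in the larynx, trachea and esophagus (columns), with filled squares for index libraries, open circles for short-code libraries and a black bar at each group mean of 2 libraries. In short-code libraries of the larynx Calca reads 0.299 and 0.704 CPM at E18.5 and 26.4 and 22.1 CPM at E15.5. Chga and Pth share most groups in which 1 library is high and the other low, but in the short-code E15.5 trachea Pth reads 0 and 14.9 CPM while Chga reads 11.98 and 17.3 CPM.

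Calca was more like Tg than like the neuroendocrine genes over the 40 libraries. For the differences between the 2 libraries of a group the r with Tg was the lower. That order hung on 1 group with a large Tg difference, the short-code E15.5 trachea, and is not read as a reversal. On log2(CPM + 1), Calca and Tg had a Pearson r of 0.720 and a Spearman rho of 0.669. Without the 2 libraries farthest from the median of Calca, both of the P0 larynx, r was 0.676. With the mean of 7 of the other members (all but Calcb) the r of Calca was 0.405 and rho 0.400. These values describe libraries that share age, organ and kind, and carry no test. Within the 30 short-code libraries r was 0.653 with Tg against 0.170 with the neuroendocrine mean, and within the 10 index libraries 0.879 against 0.743. The index libraries include the 2 of the P0 larynx, whose high Calca level was known at selection. No index value without them is given here. Of single members, Chga (0.626) and Scg2 (0.574) came closest to Calca over the 40 libraries, and Insm1 was opposed to it (-0.292). In the index libraries Chga (0.868) and Scg2 (0.867) were near the value of Tg, and in the short-code libraries (0.422 and 0.350) they were below it.

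The likeness of Calca to Tg was not the same in each organ. Within the short-code libraries r was 0.829 in the esophagus and 0.690 in the trachea. In the larynx it was 0.614 with a rho of 0.418, and -0.045 without the 2 libraries farthest from the median, so that in the larynx the relation rested on the 2 libraries at E15.5. At E18.5, across the 3 organs, r was 0.903 over 6 libraries, and at E10.5, where Tg was under 2 CPM throughout, 0.128.

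Calca did not hold a fixed ratio to Tg. In the 15 libraries with Tg at 100 CPM or more, a limit set after the levels were seen, the Calca to Tg ratio ranged from 0.00120 to 0.0230, a spread of 19.2-fold. Calca there ran from 0.704 to 113 CPM with a median of 6.60 CPM, against 0 to 11.0 CPM with a median of 1.15 CPM in the other 25 libraries, so the ranges overlapped. The E13.5 larynx held 7.41 and 10.6 CPM of Calca with only 5.05 and 5.94 CPM of Tg. In the short-code E15.5 trachea, the first library held 11.0 CPM of Calca with 1.34 CPM of Tg and the second 6.60 CPM with 1107 CPM. Over the 20 groups, the difference between the 2 libraries in Calca and in Tg had an r of 0.240, against 0.556 for Calca and the mean of the 7 neuroendocrine members. For such differences r was computed without subtracting the mean difference, so it is not Pearson's r. Tg differed by 1 log2 unit or more in 5 groups and Calca moved the same way in 4, the exception being that short-code E15.5 trachea. Its Tg difference, first library minus second, was the largest of the 20 groups, at -8.888 against 0.656 for Calca. The second library of this group was also 1 of the 4 set apart. This group lowered the r of Calca with Tg, so that r is not read against the neuroendocrine value. No r without this group is given here.

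**Figure D3:**
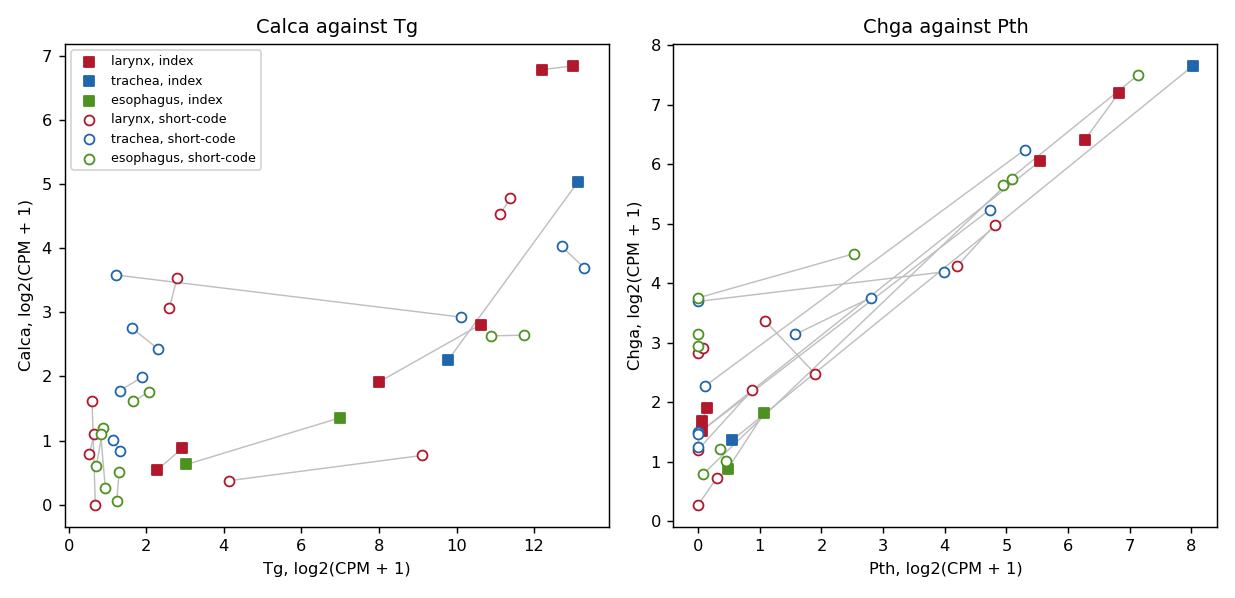
Calca against Tg (left) and Chga against Pth (right) in the 40 libraries, both axes as log2(CPM + 1), with filled squares for index and open circles for short-code libraries, colors for the 3 organs and grey lines joining the 2 libraries of a group. Calca spreads widely at a given Tg (r = 0.720 over the 40 libraries), whereas Chga lies on a line with Pth once Pth is above 10 CPM. Over all 40 libraries Chga and Pth had r = 0.916.

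Set against 10 lists of genes, chosen with earlier results of these libraries known, Calca was most like the mean level of the 13 thyroid follicle genes (r = 0.706), followed by the 6 airway and lung epithelium genes (0.642) and the 3 parathyroid genes (0.631). The 6 thyroid C cell genes stood at 0.567 (0.720 in index and 0.332 in short-code libraries), and the 12 prohormone processing and dense core vesicle genes stood at 0.405. The 12 neuroendocrine regulator and airway neuroendocrine cell genes stood at -0.166 and the 7 sensory neuron genes at -0.123. In the short-code libraries alone the airway and lung list came first (0.697) and the follicle list next (0.673), so this order depends on the libraries. Of 20245 genes ranked by likeness to Calca over the 40 libraries, Tg stood 10th at 0.720, Pth 28th, Chga 51st and Scg2 117th. The genes ahead of Tg were Napsa (0.763), Col4a4, Prlr, Ager, Scrg1, Eddm3b, Ninj2, Asgr1 and Vsig2. In the short-code libraries Tg stood 60th and Pth 1298th, and the highest were Slc26a10 (0.793), Col4a4, Sla, Gm10635, Col4a3, Abcc8, Prlr, Adora1, Mgst1 and Slc7a4. Col4a4, a chain of basement membrane collagen, and Prlr, the prolactin receptor, were in both sets of 10. Sst, the somatostatin gene that some C cells express, had an r of 0.924 with Calca in the 10 index libraries but -0.110 in the 30 short-code libraries. Those 10 index libraries include both of the P0 larynx, on whose Calca level the genes were selected.

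Calcb, on the same chromosome (chr7:114317878-114322603, plus strand, GRCm39), encodes the second calcitonin gene-related peptide and no calcitonin. The last coding exon of the Calca transcript for calcitonin gene-related peptide and that of Calcb share 87 of 90 bases in the window printed here (96.7%), so reads from it can be divided between the genes by the counting. The calcitonin exon of Calca matches Calcb in at most 35 of 90 bases (38.9%). The windows are shown since they set how far the 2 genes can be told apart, with the 3 mismatched bases in capitals.
Calca, chr7:114231745-114231834, minus strand: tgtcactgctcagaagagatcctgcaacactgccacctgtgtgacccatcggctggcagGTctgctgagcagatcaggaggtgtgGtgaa
Calcb, chr7:114321210-114321299, plus strand: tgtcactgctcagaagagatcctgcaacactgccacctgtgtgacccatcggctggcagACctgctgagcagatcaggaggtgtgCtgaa

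Calcb did not follow Calca (r = 0.024). In the adult larynx Calcb read 2.62 and 4.25 CPM with Calca at 0.843 and 0.456 CPM, and in the P0 larynx 0.709 and 0.536 CPM with Calca at 109 and 113 CPM. Calcb was at 0 in 11 libraries and reached 3 counts in 20 of 40. The spline over age within the larynx, called at an adjusted p of at most 0.01, passed for Calcb (edgeR adjusted p = 0.00056) and Insm1 (edgeR adjusted p = 0.000365), 2 of the 9 genes where 26.1% of all genes passed. Both P0 libraries were in this fit, so nothing is read from it for Calca, which was chosen on its P0 level. In the 10 short-code libraries of the larynx alone, which lack the P0 and adult ages, Calcb did not pass (adjusted p = 0.715). At E13.5 Calcb read 0.103 to 0.689 CPM in the 6 libraries of the 3 organs, against 0 to 0.0715 CPM at E10.5. It passed there (edgeR adjusted p = 0.0141), though not without the second E13.5 library of the esophagus (adjusted p = 0.0542).

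Insm1, a zinc finger transcription factor of newly formed neurons and endocrine cells (chr2:146063841-146066940, plus strand, GRCm39), was highest at E10.5. At E13.5 it read 0.187 to 0.497 CPM over the 6 libraries, against 9.23 and 12.2 CPM in the larynx, 2.39 and 2.90 CPM in the trachea and 5.32 and 9.10 CPM in the esophagus at E10.5. The groups did not overlap in any organ. The difference was -4.06 (SE 0.637, edgeR adjusted p = 1.62e-05), and the call held without each single library. Both libraries of the E18.5 larynx were at 0. Averaged over the organs, Insm1 and Resp18 were the 2 genes of the 9 that were lower at E18.5 than at E13.5, where 24.8% of all genes passed and 10.9% were lower. For Insm1 this call (edgeR adjusted p = 0.0431) was kept in only 3 of 12 fits with a single library left out, those without the first E13.5 or second E18.5 library of the esophagus or the second E13.5 library of the larynx, and its adjusted p ran from 0.0413 to 0.114. With the replicate number as a block it did not pass (adjusted p = 0.0505).

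Insm1 moved with the genes of the early nervous system. Over the 40 libraries it was most like the 9 neural progenitor and young neuron genes (r = 0.932), then the neuroendocrine regulators (0.825), and of single genes most like Dll3 (0.958), a ligand of the Notch pathway. All 9 genes of the neural progenitor list were lower at E13.5 than at E10.5, as were 16.6% of all genes, with a median difference of -5.90 beside -0.038 over all genes. Neurod1, a transcription factor of young neurons and endocrine cells, read 0 to 0.621 CPM at E13.5 against 3.22 to 20.2 CPM at E10.5. The part of neural tissue in the Insm1 level was not tested.

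At E15.5, where the kinds of library meet, Insm1 was the 1 gene of the 9 that differed between them, being higher in index libraries by 2.00 (SE 0.744, edgeR adjusted p = 0.0383). Of all genes 26.4% passed there, and the median gene was lower by 0.39. The call did not hold without 9 of the 12 single libraries, and without the first index library of the esophagus, which read 1.76 CPM, the difference was -0.26.

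Chga encodes chromogranin A, the protein of dense core vesicles in endocrine cells (chr12:102520484-102531300, plus strand, GRCm39). Its level jumped between libraries of the same group. The 2 index libraries of the E15.5 trachea read 200.6 and 1.58 CPM, those of the E15.5 larynx 65.4 and 1.88 CPM, and the short-code libraries of the E13.5 esophagus 52.9 and 0.730 CPM. The E13.5 trachea read 36.7 and 1.79 CPM and the E18.5 trachea 74.9 and 3.83 CPM. Both libraries were high in the P0 larynx, at 84.2 and 146 CPM, and in the E18.5 esophagus, at 49.5 and 181 CPM.

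Pth, the parathyroid hormone gene, was high in the same libraries. It read 259 and 0.467 CPM in the index libraries of the E15.5 trachea, 45.5 and 0.0391 CPM in those of the E15.5 larynx, and 33.0 and 0.0522 CPM in the E13.5 esophagus. The E13.5 trachea had 25.5 and 0 CPM of Pth and the E18.5 trachea 38.3 and 0.0758 CPM, while the P0 larynx had 76.1 and 112 CPM and the E18.5 esophagus 29.6 and 140 CPM. In each pair the library with more Chga was the one with more Pth. In the short-code E15.5 larynx the summed level of the 3 parathyroid genes was 20.2 to 31.9 CPM.

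Over the 40 libraries Chga and Pth had an r of 0.916 (rho 0.726), with 0.869 in short-code and 0.989 in index libraries. Pth stood first of 20245 genes in likeness to Chga, followed by Rhcg (0.878), Casr (0.842), the calcium-sensing receptor of parathyroid and C cells, and Gcm2 (0.777), the transcription factor that sets parathyroid fate. In the 12 libraries with Pth at 10 CPM or more, a limit set after the levels were seen, the ratio of Chga to Pth was 0.775 to 1.96, a spread of 2.52-fold, while Chga itself ran from 17.3 to 200.6 CPM. The differences between the 2 libraries of a group had an r of 0.946 for Chga with Pth over 20 groups. Pth differed by 1 log2 unit or more in 9 groups, and Chga moved the same way in 9 of 9. Chga was also read without Pth. Of the E15.5 trachea pair with short codes, the first held 11.98 CPM of Chga with Pth at 0 and the second 17.3 CPM with 14.9 CPM of Pth, and the second E11.5 library of the esophagus held 12.53 CPM of Chga with Pth at 0. At E10.5 the larynx held 6.08 and 6.54 CPM and the esophagus 6.71 and 7.86 CPM with Pth at 0 to 0.0559 CPM. In the other 28 libraries Chga was at most 21.6 CPM. The share of the Chga reads that parathyroid tissue gave was not tested.

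**Figure D4:**
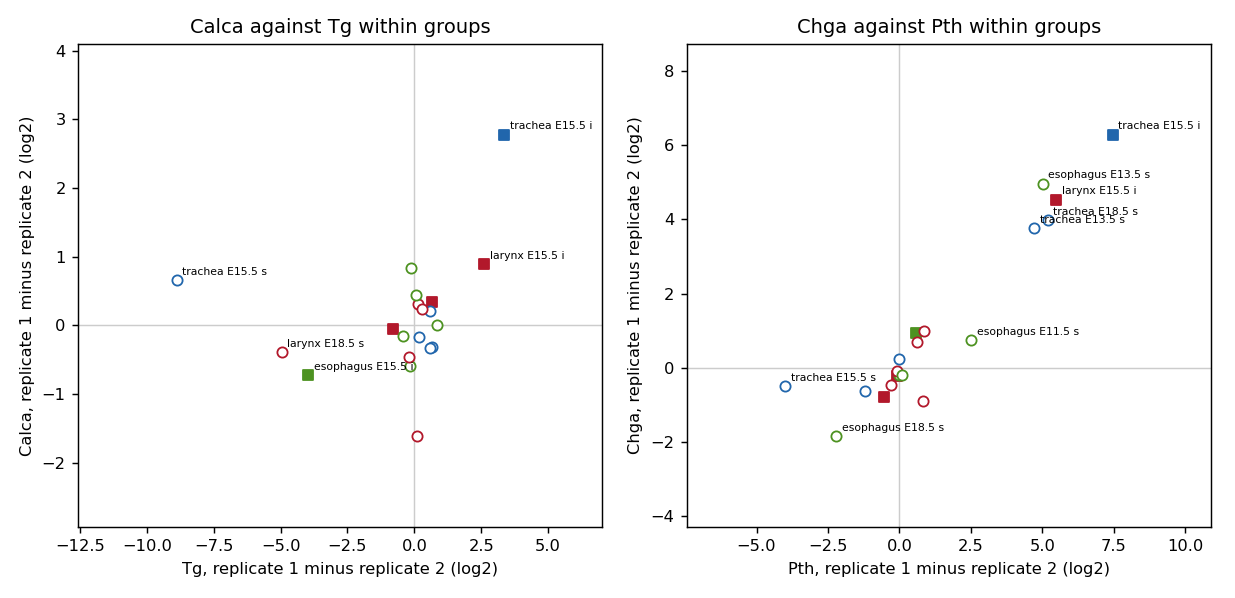
Difference between replicate 1 and replicate 2 of each of the 20 groups, on log2(CPM + 1), for Calca against Tg (left) and Chga against Pth (right), with filled squares for index (i) and open circles for short-code (s) groups, in red for larynx, blue for trachea and green for esophagus. Chga and Pth differences lie along a line (r = 0.946). Those of Calca and Tg have r = 0.240, a value that 1 group, the short-code E15.5 trachea, lowered. Each r was computed without subtracting the mean difference. That group has the largest Tg difference, at -8.888, with Calca at 0.656.

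Chga passed none of the edgeR tests between ages. It differed by 1.52 at E13.5 against E10.5 (SE 0.874, edgeR adjusted p = 0.216) and by 0.84 at E18.5 against E13.5 (SE 0.905, edgeR adjusted p = 0.713). The first value turned to -0.20 without the first E13.5 library of the esophagus and the second to -0.27 without the first E18.5 library of the trachea, the libraries with Pth at 33.0 and 38.3 CPM. In the larynx 0 of the 8 genes other than Calca passed by edgeR at P0 against E15.5, where 0.559% of all genes passed, and 0 of 8 in adults against P0, where 4.13% did. DESeq2 called 0 of the 8 in the first and 2 in the second, with 1651 and 3149 of all 36495 genes called. Scg2 alone had an unadjusted p under 0.05 in the first, and Chga, Scg2 and Scg5 in the second, a limit for which the share of all genes is not given here. Chga read 2.22 and 2.74 CPM in adults against 84.2 and 146 CPM at P0, a difference of -5.44 (SE 1.71, edgeR adjusted p = 0.0707). DESeq2 called Chga there (adjusted p = 0.00314), and over 10 alternatives the adjusted p ran from 7.70e-41 to 0.423. For Tg the adult level differed from P0 by -10.20 (SE 2.06, edgeR adjusted p = 0.00367), at 6.61 and 3.86 CPM against 4749 and 8281 CPM at P0. Calca read 0.843 and 0.456 CPM in adults, against 109 and 113 CPM at P0.

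Scg2, secretogranin II, a granin that yields secretoneurin (chr1:79412386-79417837, minus strand, GRCm39), came next to Chga in likeness to Calca. It was highest in the P0 larynx, at 25.3 and 25.9 CPM, and in the index libraries of the E15.5 trachea, at 40.5 and 5.69 CPM. In adults it read 2.62 and 4.32 CPM, a difference of -2.79 from P0 (SE 0.893, edgeR adjusted p = 0.078; DESeq2 adjusted p = 0.0152). In the trachea Scg2 read 11.1 and 11.8 CPM at E18.5 against 1.59 and 0.388 CPM at E13.5, a difference of 3.95 (SE 0.968, edgeR adjusted p = 0.00685), where 10.8% of all genes passed. The call was lost without the second E13.5 library (3.35 to 5.28 over the single libraries left out, highest adjusted p 0.135). Within the trachea, the spline over age passed for Calca (edgeR adjusted p = 0.00402) and Scg2 (edgeR adjusted p = 0.000554), 2 of the 9 genes where 11.4% of all genes passed. The Scg2 call held without each single library. That of Calca did not hold without either E10.5, either E11.5 or either E18.5 library (highest adjusted p 0.0241).

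Scg2 was most like Pcsk1, the prohormone convertase that cuts granins and peptide precursors, over the 40 libraries (r = 0.783), and the differences between the 2 libraries of a group had an r of 0.796. Of the 12 prohormone processing and dense core vesicle genes, 3 were higher and 2 lower at E18.5 than at E13.5, where 13.9% of all genes were higher and 10.9% lower, with a median of 0.301 beside 0.000 over all genes. Pcsk1 was higher by 1.54 (SE 0.555, edgeR adjusted p = 0.0409), and Pcsk2, the other convertase, by 1.47 without passing (SE 0.588, edgeR adjusted p = 0.0705). Pam, the enzyme that amidates calcitonin and many other peptides, was lower at E18.5 than at E13.5 by 1.301 (SE 0.295, edgeR adjusted p = 0.0012), after being higher at E13.5 than at E10.5 by 3.63 (SE 0.322, edgeR adjusted p = 1.68e-09). Cpe, the carboxypeptidase that trims the cut peptides, was higher at E13.5 than at E10.5 by 1.12 (SE 0.149, edgeR adjusted p = 1.41e-06). Pam and Cpe are used by many cells and read at least 49.8 and 44.5 CPM in every library.

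Chgb (chromogranin B, chr2:132622464-132637904, plus strand), Scg5 (the 7B2 chaperone of Pcsk2, chr2:113606688-113660094, minus strand) and Resp18 (a neuroendocrine protein of the secretory path, chr1:75248842-75255253, minus strand, all GRCm39) were closer to each other than to Calca. Their pairwise r was 0.782 for Chgb with Scg5, 0.753 for Chgb with Resp18 and 0.816 for Scg5 with Resp18, while with Calca they had 0.080, 0.159 and 0.021. Chgb was highest in the E11.5 esophagus, at 12.3 and 35.2 CPM. Scg5 read 1.83 and 27.4 CPM in the E11.5 larynx, and Resp18 4.97 and 1.58 CPM in the short-code E15.5 trachea, the highest libraries of each.

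Over the 40 libraries these 3 genes were close to lists of neuron genes. Chgb was most like the 14 peripheral and enteric neuron genes (r = 0.818), Scg5 the prohormone processing genes (0.854) and next the same neuron list (0.834), and Resp18 the 7 sensory neuron genes (0.840). The order depended on the kind of library. In the index libraries the sensory list stood at 0.190 for Chgb, -0.286 for Scg5 and -0.023 for Resp18. There Scg5 (0.948) and Resp18 (0.705) were most like the prohormone processing genes. Chgb was there most like the peripheral and enteric neuron genes (0.817), which stood at 0.685 for Scg5 and 0.686 for Resp18. The genes most like Scg5 were Stmn2, Stmn3 and Snap25 (0.885 to 0.894) and those most like Resp18 were Ttc9b, Syt4, Tmem130 and Syp (0.888 to 0.910), several of them synaptic or axonal genes. In the short-code E15.5 trachea, the library with 20.8 CPM of Scg5 held 49.2 CPM of Syp, the synaptic vesicle protein synaptophysin, and the library with 5.08 CPM of Scg5 held 6.64 CPM of it. The part of neurons in the level of the 3 genes was not tested.

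Of the 3, only Resp18 passed a test between ages. It read 0 to 0.219 CPM at E18.5 against 0.104 to 1.69 CPM at E13.5 over the 3 organs, a difference of -2.56 (SE 0.881, edgeR adjusted p = 0.0281), and the libraries of the esophagus overlapped between the ages. The call was lost without the first E13.5 library of the esophagus or trachea, the first E18.5 library of the larynx or trachea or the second of the esophagus (-3.78 to -1.56 over the single libraries left out, highest adjusted p 0.346).

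**Figure D5:**
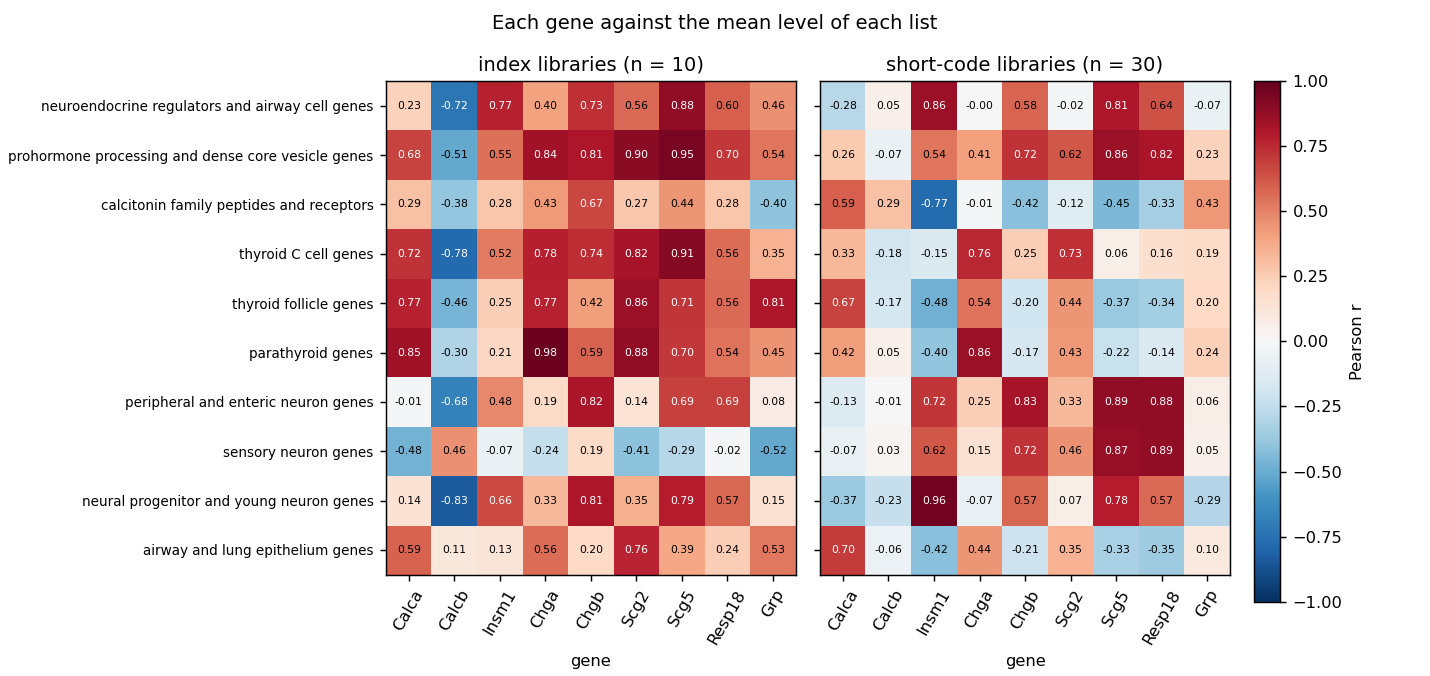
Pearson r of each of the 9 genes (columns) with the mean log2(CPM + 1) of each of 10 gene lists (rows), in the 10 index libraries (left) and the 30 short-code libraries (right). Insm1 is closest to the neural progenitor list in short-code libraries (0.964), Chga to the parathyroid list in both kinds (0.978 and 0.863), and Calca to the parathyroid list in index libraries (0.851) and the airway list in short-code libraries (0.697). The index libraries include both of the P0 larynx, whose Calca level was known at selection.

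Grp, gastrin-releasing peptide, the bombesin-like peptide of airway neuroendocrine cells (chr18:66005762-66020385, plus strand, GRCm39), was low throughout, at 0 to 2.10 CPM. It read 0.280 to 1.77 CPM at E13.5 over the 6 libraries, against 0 to 0.279 CPM at E10.5, a difference of 3.32 (SE 0.674, edgeR adjusted p = 0.000245) that held without each single library. Both index libraries of the E15.5 trachea held 2.10 and 2.07 CPM, although their Calca read 31.7 and 3.76 CPM. Its r with Calca was 0.405. The spline over embryonic age passed for Calca (edgeR adjusted p = 0.0019), Insm1 (edgeR adjusted p = 1.09e-06) and Grp (edgeR adjusted p = 0.00207), 3 of the 9 genes where 34.4% of all genes passed. Within the esophagus 0 of the 9 passed by edgeR at this threshold, where 5.87% of all genes did, with 3 called by DESeq2. Calca, Insm1, Chga, Chgb, Scg5 and Resp18 had an unadjusted p under 0.05 there. The share of all genes under that unadjusted p is not given here, so these 6 are not read as a result about the 9.

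Receptors and further peptides of the calcitonin family were read as 1 list, which also holds Grpr, Nmb and Nmbr. Of the 12 genes of this list, 6 were higher and 1 was lower at E13.5 than at E10.5, where 13.6% of all genes were higher and 16.6% lower, with a median difference of 1.498 beside -0.038 over all genes. Ramp1, which joins Calcrl to form the receptor of calcitonin gene-related peptide, was higher at E13.5 by 4.99 (SE 0.465, edgeR adjusted p = 3.49e-09) and at E18.5 against E13.5 by 2.44 (SE 0.345, edgeR adjusted p = 3.53e-06). Calcrl was higher at E13.5 by 1.55 (SE 0.243, edgeR adjusted p = 1.498e-05). Calcr, the calcitonin receptor, was higher at E13.5 by 2.83 (SE 0.541, edgeR adjusted p = 0.000184) and lower at E18.5 than at E13.5 by 1.43 (SE 0.51, edgeR adjusted p = 0.0391). Grpr, the receptor of gastrin-releasing peptide, read at most 1.45 CPM in any library and passed neither test.

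Of the 13 thyroid follicle genes, 10 were higher and 0 lower at E18.5 than at E13.5 by edgeR, where 13.9% of all genes were higher. In trachea against esophagus 4 were higher, as were 0.658% of all genes, and in the adult larynx against P0 7 were lower, as were 2.04%. Their summed level ran from 4882 to 8473 CPM in the P0 larynx and, at E18.5, from 6869 to 10217 CPM in the trachea and from 28.0 to 576 CPM in the larynx. Of the 6 C cell genes, read against the same shares of all genes, Ddc and Gfra4 were higher at E18.5 than at E13.5, and Ddc, Gfra4 and Sst were lower in the adult larynx than at P0. Sst read 0 in both adult libraries, against 4.25 and 4.95 CPM at P0, and also 8.16 and 10.45 CPM in the E10.5 larynx, where Calca read 1.15 and 0.726 CPM. The part of thyroid or parathyroid tissue in the Calca level was not tested.

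Promoter windows were matched for 6 of the 9 genes (not for Calcb, Insm1 and Grp) in the RefSeq table, which spans 250 bases before to 50 after the start site and uses the GRCm38.p6 build. They are shown for the cyclic AMP response element, known from granin and calcitonin genes. The full element, TGACGTCA, was in 2 of the 6 promoters, those of Chgb and Scg2, and in 1.79% of 32851 promoters. Its first 5 letters, TGACG, searched on both strands and contained in the full element, were in 5 of 6 (not Resp18) and in 20.8% of all promoters. The element is in capitals in each line, 5′ to 3′ on the strand of the gene.
Calca, chr7:114636398-114636437, minus strand, GRCm38.p6: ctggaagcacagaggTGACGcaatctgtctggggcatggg
Chga, chr12:102554882-102554921, plus strand, GRCm38.p6: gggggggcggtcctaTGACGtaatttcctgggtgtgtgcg
Chgb, chr2:132781555-132781594, plus strand, GRCm38.p6: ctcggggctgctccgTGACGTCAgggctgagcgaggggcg
Scg2, chr1:79440070-79440109, minus strand, GRCm38.p6: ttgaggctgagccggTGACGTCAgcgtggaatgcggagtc
In these 4 windows the element began 44 to 72 bases before the start site. Scg5, whose windows are not printed, held TGACG at 175, -19 and -40 bases before it. Negative values lie after the start site, and the last of these sites was on the opposite strand. Chgb and Scg2, the pair with the full element, had an r of 0.413 with each other over the 40 libraries, and Chga and Scg2, of which only Scg2 holds it, 0.696.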

How the data were processed

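Reads were aligned and quantified by the authors with RSEM 1.3.3 and Bowtie2 2.4.2 on GRCm39, and per the labels each of the 2 deposited tables holds expected counts, one table per kind of library. The sources used here do not state whether counting used strand. Of 53647 Ensembl identifiers, 52610 matched a symbol. Expected counts were rounded and tested in edgeR 4.0.16 (R 4.3.3) by the quasi-likelihood test with median-ratio factors, after genes without a normalized count of 1 or more in 2 or more libraries were dropped. A fit of 20 group means over 40 libraries (20 residual degrees of freedom, common dispersion 0.151) gave the contrasts, called at a Benjamini-Hochberg adjusted p under 0.05. Natural splines with 3 degrees of freedom on age rank, fitted to both kinds of library with no term for kind, were called at an adjusted p of at most 0.01. CPM is the expected count scaled to a library total of 1000000. Likeness is Pearson's r of log2(CPM + 1), with no test. For differences between the 2 libraries of a group, r was computed without subtracting the mean difference.

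Members and lists were chosen with earlier results of these data known. Named were the 9 members and Tg, the 3 genes of highest mean CPM in a list and those past a described test, and the 10 genes most like Calca. Other genes, among them those most like the other members, were chosen after their values were seen. No p-value is given for Calca between P0 and E15.5 or adult. The fits were tested on simulated data. Alternatives were TMM factors, other filters, DESeq2 1.42.0, a replicate block, single libraries left out and the kinds of library combined. Of the deposited value columns 0 were left unmatched. Library totals of 3286403 to 35831491 expected counts set the precision, and limits of detection cover counting error only. Sequences came from the GRCm39 annotation and the RefSeq promoter table.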

Additional observations from a re-analysis of the deposited data

Results flagged for a closer look

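Libraries of Calca and Scg2 lay on opposite sides between organs at E18.5 against E13.5, without a difference that passed by edgeR over all libraries. In the larynx both E18.5 libraries lay below both E13.5 libraries for Calca, and in the trachea and esophagus both lay above. The difference between larynx and trachea in the Calca step was -5.44 (SE 1.26, unadjusted p = 0.000183 and adjusted p = 0.238 over all genes in edgeR), and that between larynx and esophagus -5.50 (SE 1.27, adjusted p = 0.338). For Scg2, which passed in the trachea alone and read 0.940 and 0.548 CPM at E18.5 against 1.49 and 1.03 CPM at E13.5 in the larynx, the difference from the trachea was -4.04 (SE 1.31, adjusted p = 1). None of these 3 differences passed the edgeR test over all genes, in which 0 genes were called for larynx against trachea and 3 for larynx against esophagus. The differences of Calca passed with DESeq2 and without the 4 libraries set apart, so their outcome depends on the method.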

How the results depend on the processing

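Without a filter on low counts, the genes called of the 9 (of 8, without Calca, in the P0 comparisons) numbered 7 at E13.5 against E10.5, 5 at E18.5 against E13.5, 2 at P0 against E15.5, 3 in adults against P0, 2 for trachea and 2 for larynx against esophagus, 3 for larynx against trachea, 3 between kinds of library, 7 for the larynx spline and 1 for the esophagus spline. Without that filter 41882 genes were tested, against 36495 with it. At P0 against E15.5 1992 of them were called (204 with the filter), and in adults against P0 2930 (1506). For trachea and larynx against esophagus 1797 (553) and 1174 (81) were, and for larynx against trachea 1041 (148). The numbers were close at E13.5 against E10.5, 10896 (11018), at E18.5 against E13.5, 9067 (9052), and between kinds, 9838 (9641). The cause was not tested. DESeq2 called 2 in adults against P0, 1 for larynx against esophagus, and 4, 3 and 6 for the splines of larynx, esophagus and trachea. Of all 36495 genes it called 3149 in adults against P0 and 499 for larynx against esophagus. For the splines the shares of all genes under these settings are not given here. The larynx spline counts include Calca among the 9, with both P0 libraries in the fit. Short-code libraries alone gave 1 for the esophagus and 4 for the trachea spline, both kinds together 0 at E18.5 against E13.5 and 0 for trachea against esophagus, and leaving out the 4 libraries set apart 3 in adults against P0. Of all genes, both kinds together gave 7175 and 43 of 36495 in those 2 comparisons. Leaving out the 4 libraries gave 4423 of 31904 in adults against P0.

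With the replicate number as a block, 1 gene was called at E18.5 against E13.5 and 0 between kinds, since Insm1 missed the threshold in both (adjusted p = 0.0505 and 0.0521). It changed no other call of the named genes. Over 18 pairings same-numbered libraries had r of -0.414 to 0.366 with a median of 0.116, so the numbers were not taken as pairs. All 3 pairings of organs at E13.5 (0.268 to 0.355) and all 3 at E18.5 (0.193 to 0.228) were over 0.1, and those at E11.5 ran from -0.414 to 0.267.

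With single libraries left out the counts were 3 to 4 at E13.5 against E10.5, 0 to 2 at E18.5 against E13.5, 1 to 2 for trachea and 0 to 1 for larynx against esophagus, 0 to 1 between kinds, 3 to 4 for the embryonic spline, 0 to 1 for the esophagus and 1 to 3 for the trachea spline. Values that turned sign were Insm1 between kinds (-0.26 without the first index library of the E15.5 esophagus, up to 2.90), Calca at E18.5 against E13.5 (-0.013 without the first E13.5 and -0.12 without the second E18.5 library of the larynx, up to 0.25), and Chga at E13.5 against E10.5 (-0.20 without the first E13.5 library of the esophagus, up to 1.85) and at E18.5 against E13.5 (-0.27 without the first E18.5 library of the trachea, up to 2.56).

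The r of Calca with Tg was 0.879 in index libraries and 0.240 between replicates, and that of Calca with the neuroendocrine mean 0.170 in short-code libraries, 0.743 in index libraries and 0.556 between replicates. The index values include both P0 larynx libraries, whose Calca level was known at selection. For Chga with Pth, alternatives added after seeing the data gave 0.848 with log2(CPM + 0.1), 0.839 with normalized counts, 0.869 and 0.989 in short-code and index libraries and 0.946 between replicates. TMM factors put 50.9% of calls between kinds higher, against 39.0%, and 33.3% for trachea against esophagus, against 43.4%. Having 2 libraries a group, and fewer than 3 counts in many libraries for Calcb, limits all of these.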
